A study of Mus musculus with 1298 samples.

Results

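The small leucine-rich proteoglycans are secreted proteins of the extracellular matrix, and 10 of their genes were followed here across embryonic days, cell classes and sorted or cultured populations of one mouse lineage. The genes were chosen by name: Dcn (decorin), Bgn (biglycan) and Aspn (asporin), which form one class of the family, Lum (lumican), Fmod (fibromodulin), Kera (keratocan), Omd (osteomodulin) and Prelp, which form another, Ogn (osteoglycin, also called mimecan) and Podn (podocan). All 10 were present in each table: 10 of 17634 genes in the 10x table, 10 of 22894 in the Smart-seq2 table and 10 of 22938 in the bulk table.

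A small leucine-rich proteoglycan has a curved core protein made of leucine-rich repeats, and most members carry chondroitin, dermatan or keratan sulfate chains. Decorin, lumican and fibromodulin bind collagen fibrils and set their diameter and spacing in skin, tendon and cornea, and decorin and biglycan also bind transforming growth factor beta. In connective tissue the genes are made by fibroblasts and their progenitors, and Fmod, Aspn and Ogn are strong in tendon and other dense matrix.

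The embryos carried a tamoxifen-dependent Cre at the Pax7 locus and a Rosa26 reporter in which a stop cassette precedes EYFP (Pax7CreER:R26R-stop-EYFP), so YFP marks cells descended from those that expressed Pax7 when tamoxifen was given, at E9.5. Trunk cells positive for YFP, without head, limbs and viscera, were sorted from several pooled embryos of E12.5, of E14.5 or of E16.5 and measured as single cells with droplet 10x libraries, 1 library per day, and with plate-based Smart-seq2. The bulk series held 18 libraries of the same lineage: 4 of Pdgfra+ cells and 2 of Pdgfra-/Cd36+ cells sorted at E16.5 by their labels, and 12 of Pdgfra+ cells taken at E14.5 and cultured, 6 in growth medium with serum (DMEM) and 6 in adipogenic medium (ADM). The study's text gives E14.5 for its sorted Pdgfra+/Thy1- cells, so the day of some sorted Pdgfra+ libraries is uncertain. Pdgfra marks mesenchymal progenitors and Cd36 a fatty acid carrier of adipocytes. The labels also split the Pdgfra+ libraries by Thy1, but the column names of the bulk table had lost the sign of that gate, so Thy1+ and Thy1- libraries were not told apart and each set was used whole.

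After the study's cell limits 3852 of 3916 cells remained, 2921 from 10x and 931 from Smart-seq2, and 3 cell barcodes were shared between 10x libraries. Cells of the 10x libraries had median totals of 2185 counts on E12.5, 5930 on E14.5 and 1608 on E16.5. Cells were clustered without the 10 genes and their partner lists, and clusters were called like a class of the study from marker genes: MP-like for mesenchymal progenitors, DF-like for dermal fibroblasts, EM-like and LM-like for early and late muscle, BA-like for brown adipocytes, PE-like for pericytes, and NP-like and N-like for neural progenitors and neurons. The DF markers summed to 5755 and 3192 CPM (counts scaled to a total of 1000000) in the DF-like 10x sums of E14.5 and E16.5, with Twist2 in 91.4% and 72.9% of cells, against 312.4 and 239.8 CPM in MP-like cells. The MP markers summed to 2593 and 2379 CPM in MP-like cells of those days against 1261 and 1179 CPM in DF-like cells. At E12.5 the MP-like cells were 1 cluster that also held the DF marker Crabp1 in 48.7% of its 10x cells, and its naming score for MP was only 0.294 against 0.25 for DF. All pool sums of a class held at least 20 cells, and the intervals given with 10x values, like the p-values between pools, which measure only the spread between these pools, take no account of other embryos: the intervals cover counting error only.

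The genes lie in 3 groups of neighbours and 2 single places of the mouse genome (GRCm38, GENCODE vM21). Dcn (chr10:97479609-97518143), Lum (chr10:97565128-97572703) and Kera (chr10:97606879-97613692) follow each other on the plus strand of chromosome 10. Aspn (chr13:49544443-49567565), Omd (chr13:49582462-49592822) and Ogn (chr13:49608046-49624501) follow each other on the plus strand of chromosome 13, with Omd between the other two. Prelp (chr1:133910304-133921414, minus strand) and Fmod (chr1:134037254-134048277, plus strand) lie on chromosome 1 with 115840 bases between them. Podn is on chromosome 4 (chr4:108014791-108096445, minus strand) and Bgn on the X chromosome (chrX:73483602-73495933, plus strand).

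Promoters were taken from RefSeq (GRCm38.p6) as the 250 bases before a start, which gave 9 sequences for 8 of the 10 genes. They are shown for 4 genes that part ways in the values that follow: Aspn and Ogn, which were high in the same cells, Omd, which lies between them and was near 0, and Prelp, the member that BA-like cells also held. Capitals mark matches on either strand to the letters of 5 motifs. These were the TATA box, spelled TATAAA, the CCAAT box, the GC box, spelled GGGCGG, the TEAD-type MCAT element, spelled GGAATG, and the AP-1 element, spelled TGANTCA. On the other strand the TATA box reads TTTATA and the CCAAT box reads ATTGG.
Aspn, chr13:49544193-49544442, plus strand: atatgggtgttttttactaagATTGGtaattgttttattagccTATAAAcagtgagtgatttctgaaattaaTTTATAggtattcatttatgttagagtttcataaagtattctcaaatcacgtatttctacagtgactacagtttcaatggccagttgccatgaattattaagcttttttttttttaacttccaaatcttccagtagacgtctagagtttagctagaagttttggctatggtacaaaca
Omd, chr13:49582212-49582461, plus strand: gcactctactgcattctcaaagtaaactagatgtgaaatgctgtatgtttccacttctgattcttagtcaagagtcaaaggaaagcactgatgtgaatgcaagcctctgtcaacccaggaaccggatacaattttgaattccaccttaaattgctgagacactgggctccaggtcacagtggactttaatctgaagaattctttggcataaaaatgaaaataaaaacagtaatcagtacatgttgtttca
Ogn, chr13:49607765-49608014, plus strand: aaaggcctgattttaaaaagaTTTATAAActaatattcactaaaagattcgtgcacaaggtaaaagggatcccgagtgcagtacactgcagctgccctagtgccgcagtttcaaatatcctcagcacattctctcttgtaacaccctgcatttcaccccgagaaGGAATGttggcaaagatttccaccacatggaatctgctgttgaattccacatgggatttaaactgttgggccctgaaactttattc
Prelp, chr1:133921402-133921651, minus strand: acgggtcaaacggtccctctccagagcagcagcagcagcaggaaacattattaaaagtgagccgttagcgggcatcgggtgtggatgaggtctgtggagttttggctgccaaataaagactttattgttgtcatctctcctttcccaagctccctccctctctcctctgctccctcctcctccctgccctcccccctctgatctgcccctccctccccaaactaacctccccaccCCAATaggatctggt
The TATA box letters were found in 2 of the 9 sequences and in 12.4% of 32851 RefSeq promoters of the same length, those of the CCAAT box in 3 and in 33.8%, of the GC box in 2 and in 32.7%, of the TEAD-type element in 1 and in 12.6%, and of the AP-1 element in 0 and in 6.75%. Aspn held 1 CCAAT box and 2 TATA box matches, all far before the start. Ogn held 2 TATA box matches on opposite strands that overlap, and 1 TEAD-type match whose first base lay 86 bases before the start. In Prelp the CCAAT box began 15 bases before the start, and the Omd window held none of these letters. The GC content was 30% for Aspn, 38.4% for Omd, 42% for Ogn and 55.6% for Prelp, and the median over all promoters was 52.4%. Such matches describe letters and not binding.

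The genes were mainly those of the 2 fibroblast-like classes. In the E14.5 10x sums Dcn, the decorin gene, stood at 1371 CPM (95% Poisson interval 1299 to 1447) in DF-like cells, 564 CPM (532.7 to 596.7) in MP-like cells and 14.9 CPM in N-like cells, which should lack it. Lum followed the same order with 1805, 413.7 and 3.71 CPM. For Dcn the N-like, EM-like, LM-like and NP-like sums, from 0 to 14.9 CPM, had overlapping intervals, so they were not ordered. At 1000 counts per cell, 70.6% of DF-like and 34.1% of MP-like E14.5 10x cells held a Dcn count, against 2.53% of N-like cells (before thinning 96.9%, 66.8% and 3.75%, at median totals of 5468, 5423 and 3018).

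**Figure D1:**
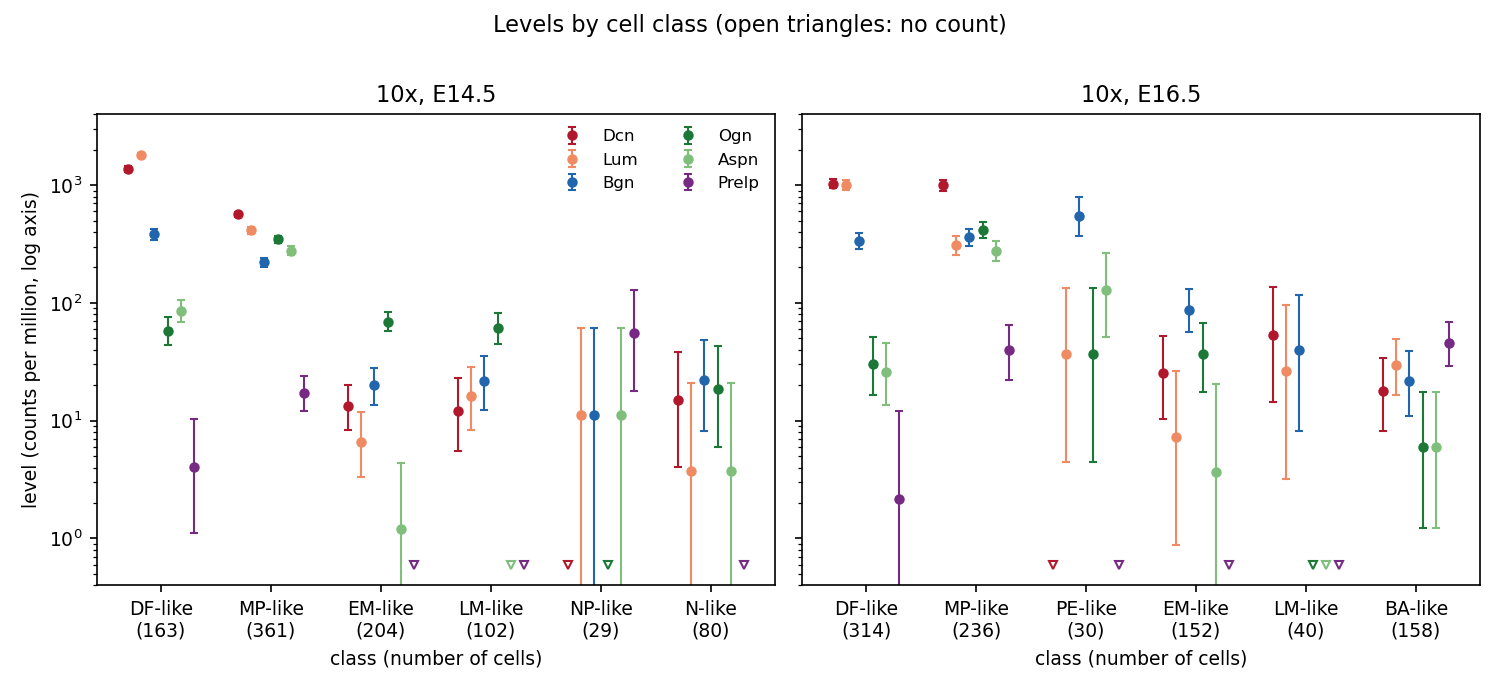
Levels of 6 genes in the class sums of the 10x libraries of E14.5 (left) and E16.5 (right). The vertical axis is CPM on a log scale, points are class sums with their 95% Poisson intervals, open triangles at the bottom mark classes with no count, and numbers under the classes are cells. DF-like and MP-like cells hold Dcn at 564 CPM and above, Prelp reaches 45.6 CPM in BA-like and 55.3 CPM in NP-like cells, and Bgn reaches 550.5 CPM in PE-like cells.

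Members were also found outside the fibroblast-like classes, among them Bgn, Aspn, Ogn and Prelp. Bgn, biglycan, was at 550.5 CPM in the 30 PE-like 10x cells of E16.5, and its interval overlapped that of the MP-like cells at 360.97 CPM, so these neighbours were not ordered. Aspn, asporin, was at 128.45 CPM (51.6 to 264.65) in those PE-like cells, on 7 UMIs, above the DF-like 26.1 CPM (13.5 to 45.6) and overlapping the interval of MP-like cells. All 15 PE-like Smart-seq2 cells of E16.5 held Aspn, at 740.7 CPM, and Bgn, at 1011 CPM, and with so few cells they entered no sum. They also held Dcn at 429.8 CPM in 9 cells, Ogn at 265.9 CPM in 13, Lum at 233.9 CPM in 7 and Fmod at 101.1 CPM in 5. The PE-like 10x cells of E16.5 held 0 Dcn UMIs (at most 67.7 CPM), so the platforms differed for Dcn. The MP-like Smart-seq2 sum of that day held 1198 CPM of Aspn and 763.45 CPM of Bgn. Ogn, which encodes a secreted keratan sulfate protein, was at 69.4 CPM in the EM-like sum of E14.5 10x cells, next to 61 CPM for LM-like and 58.1 CPM for DF-like cells, and the 3 intervals overlapped. In Smart-seq2, Ogn was in 73.5% of EM-like E14.5 cells and in none of the N-like cells (up to 3.05% by the exact binomial limit; median totals 727577 and 695075; at 100000 counts per cell 69.4% and 0%), and the EM-like levels were 31.9 CPM on E12.5, 117.9 CPM on E14.5 and 233.98 CPM on E16.5. In 10x the EM-like levels of Ogn were 13.1 CPM on E12.5, 69.4 CPM on E14.5 and 36.5 CPM on E16.5, so the platforms differed in the later step. The E16.5 value rested on 10 UMIs (17.5 to 67.1 CPM), and its interval overlapped that of E14.5. Lum was counted in N-like cells as well: 71.9% of the 64 N-like Smart-seq2 cells of E12.5 held a count at a median total of 1158181, at a level of 2.93 CPM, and at 100000 counts per cell the share was 17.5%. In the same sum Dcn was at 0.0409 CPM, Bgn at 0.0545 CPM and Ogn at 0.

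Omd, Podn and Kera hardly registered. Omd had 1 UMI among 2141780 in the MP-like E14.5 10x sum and 0 among 981550 in the DF-like one, which allows 3.76 CPM by the exact Poisson limit, and it stayed between 0.715 and 2.03 CPM in the MP-like and DF-like Smart-seq2 sums. Podn was between 2.01 and 4.35 CPM in the MP-like and DF-like 10x sums and reached 20.6 CPM in MP-like Smart-seq2 cells of E16.5. Kera, the cornea member, was highest in MP-like Smart-seq2 cells of E14.5 with 37.96 CPM.

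DF-like and MP-like cells of the same pools held different members. Over 4 pools (E14.5 and E16.5, 10x and Smart-seq2) edgeR's quasi-likelihood test with the pool as a block called Lum and Dcn higher and Ogn, Aspn and Prelp lower in DF-like cells. That is 2 of 10 genes higher, where 5.04% of 14199 tested genes were called higher, and 3 of 10 lower, where 6.2% were. The median log2 fold change was -1.04 over the members and -0.04 over all genes tested.

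Lum stood at 1805 and 1001 CPM in DF-like 10x sums of E14.5 and E16.5 and at 2516 and 4265 CPM in the Smart-seq2 sums of the same days. MP-like cells of those pools held 413.7, 310.9, 695 and 1114 CPM of Lum, lower in each pool. The log2 fold change of Lum was 1.90 (SE 0.10, adjusted p = 3.27e-06). Dcn was at 1371, 1029, 2009 and 3505 CPM in DF-like and at 564, 996, 1125 and 2669 CPM in MP-like sums of these pools, and the 10x pair of E16.5 was close. Its log2 fold change was 0.64 (SE 0.16, adjusted p = 0.0281). Without the 10x pool of E14.5 the Dcn fold was 0.47 and with 10x pools alone 0.71, and neither was called.

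Ogn had 58.1, 30.5, 77.4 and 233.8 CPM in DF-like sums, in the same order of pools, and 345.97, 418.9, 752.7 and 1944 CPM in MP-like sums. DF-like cells were lower in all 4 pools, with a log2 fold change of -3.12 (SE 0.16, adjusted p = 2.98e-06). Aspn, a decorin relative that binds calcium and collagen, had 85.6, 26.1, 71.4 and 413.8 CPM in DF-like and 278.3, 276.7, 246.8 and 1198 CPM in MP-like sums. It fell by 1.92 on the log2 scale (SE 0.22, adjusted p = 3.31e-04). Prelp, whose amino end binds heparan sulfate and which anchors basement membranes to connective tissue, had 4.08, 2.18, 2.72 and 8.19 CPM in DF-like and 17.3, 39.5, 118.4 and 125.99 CPM in MP-like sums. Its log2 fold change was -4.39 (SE 0.44, adjusted p = 1.40e-04).

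Bgn, Fmod, Kera, Omd and Podn were not called between the classes. Bgn had 382.05, 337.2, 710.1 and 636.3 CPM in DF-like and 220.8, 360.97, 500.98 and 763.45 CPM in MP-like sums, higher in DF-like cells at E14.5 and lower at E16.5 on both platforms. Fmod differed by -1.16 (SE 0.62, adjusted p = 0.289) and its sign turned to 0.10 once the Smart-seq2 sums of E14.5 were left out.

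**Figure D2:**
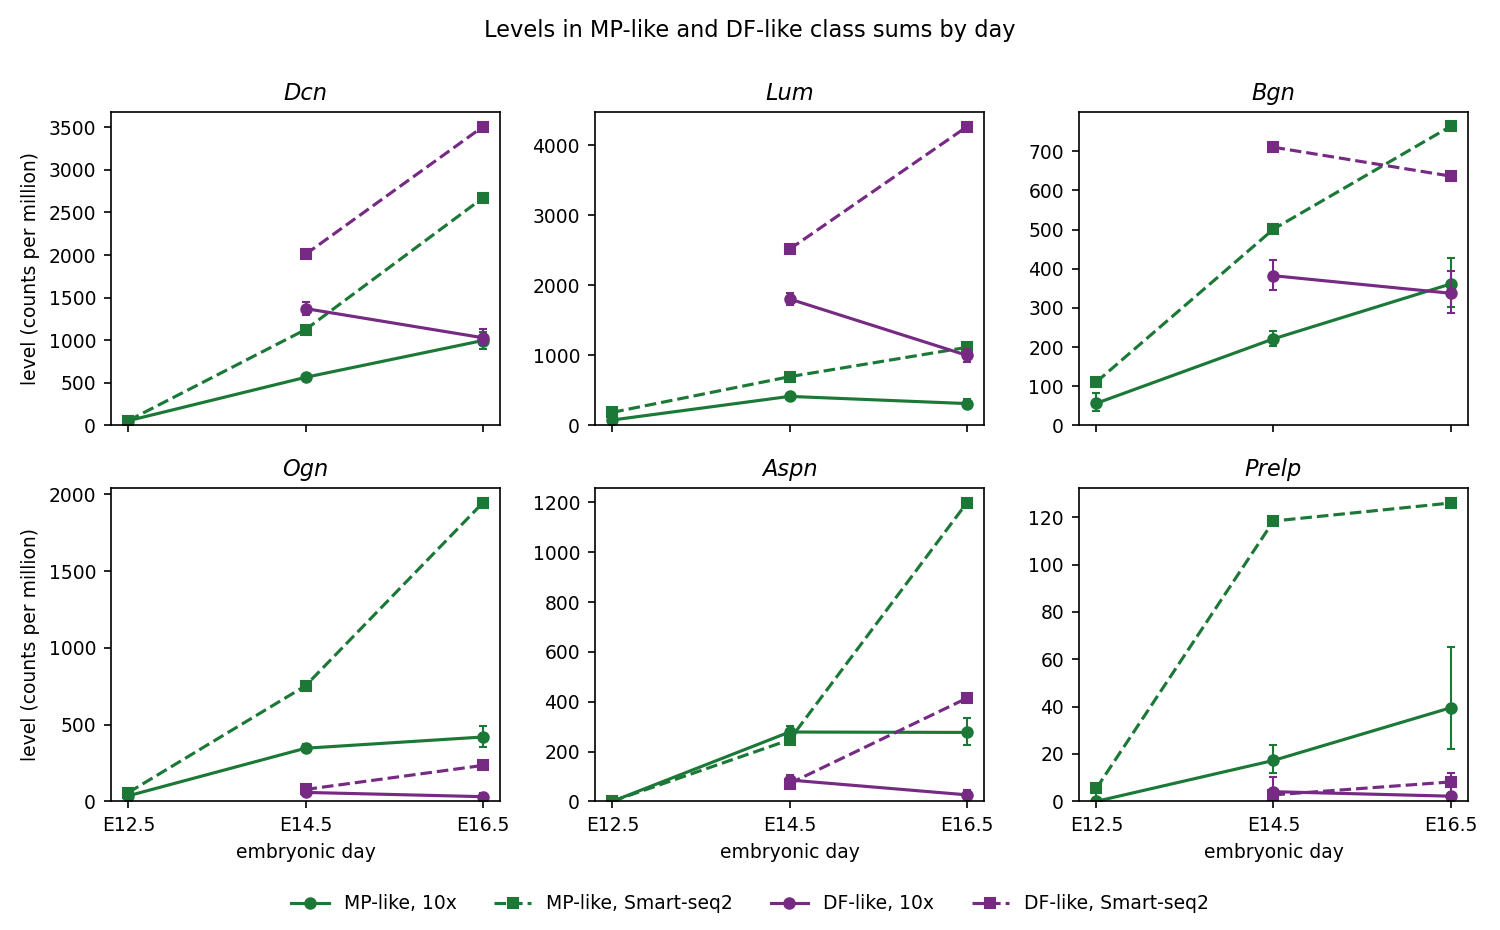
Levels of 6 genes (vertical axes, CPM, linear from 0) by embryonic day in MP-like (green) and DF-like (purple) sums. Circles with solid lines are 10x sums with 95% Poisson intervals and squares with dashed lines Smart-seq2 sums, which have no interval, and each point is 1 pool. Lum is higher in DF-like cells and Ogn, Aspn and Prelp in MP-like cells of each pool that has both classes. Among the MP-like sums of each platform all 6 are lowest at E12.5, a day without a DF-like sum.

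MP-like cells also held more tendon marker counts than DF-like cells. Scx, Tnmd, Mkx and Thbs4 summed to 237.7, 268.8, 931.9 and 792.7 CPM in MP-like and to 12.2, 15.2, 38.5 and 35.8 CPM in DF-like sums of the 4 pools, and 3, 2, 4 and 3 of the 4 markers were in at least 5% of MP-like cells. The MP-like 10x cells without any count of these markers, 61.5% of them on E14.5 and 83.9% on E16.5, had 314.7 and 368.2 CPM of Ogn, 233.9 and 274.6 CPM of Aspn, and 21.8 and 37.4 CPM of Prelp. A cell without a count need not lack these markers: in Smart-seq2, 75% and 79.5% of the MP-like cells of those days held one. Ogn, Aspn and Bgn were higher in MP-like 10x cells of E14.5 with a tendon marker count. Ogn was at 393.05 CPM (352.1 to 437.4, against 284.8 to 346.9 in the others). Aspn was at 345.1 CPM (306.8 to 386.8, against 208.2 to 261.9), and Bgn at 300.6 against 167.8 CPM. Lum, Prelp and Omd were lower, with overlapping intervals. At E16.5 Ogn was at 694.55 CPM (498.4 to 942.2, against 304.75 to 440.9), and the intervals of Aspn and of Bgn overlapped. Fmod and Kera were also split in 10x. At E16.5 Fmod had 11 UMIs in the 38 MP-like cells with a tendon marker count (186.3 CPM, 93.02 to 333.4) and 3 UMIs in the others (9.36 CPM, 1.93 to 27.4), and at E14.5 Kera was at 18.7 CPM (10.7 to 30.4) in cells with a count and at 1.55 CPM (0.188 to 5.61) in the others. In Smart-seq2 of E16.5 it was the reverse for Fmod, at 23.3 CPM in cells with a tendon marker count and 34.02 CPM over all MP-like cells. This split was made after the values were seen, and the part of tendon cells in the class difference was not tested.

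In EM-like cells, which express Pax7 and the early myogenic factors, nearly the whole family was low. Of the 10 members, 9 fell against MP-like cells over 6 pools (14.1% of 13939 genes were called lower), with a median log2 fold change of -6.45 over the members and -0.15 over all genes. Dcn was between 5.56 and 25.5 CPM in the 6 EM-like sums and between 54.2 and 2669 CPM in the MP-like sums, which did not overlap. Its log2 fold change was -5.25 (SE 0.52, adjusted p = 1.32e-04). Lum fell by 8.62 on the log2 scale (SE 1.31, adjusted p = 0.0013), from 76.3 CPM or more in each MP-like sum to 13.1 CPM or less. The smallest falls were those of Bgn, -1.99 (SE 0.29, adjusted p = 0.00102), and Ogn, -2.33 (SE 0.33, adjusted p = 9.23e-04). Fmod (-6.38), Aspn (-6.51), Podn (-7.13), Prelp (-7.96) and Kera (-10.49) also fell, where most EM-like sums had no or few counts, so the sizes depend on the prior count of the fit. Omd, at 3.45 CPM or less in both classes, was not called (log2 fold change 0.19, SE 1.01, adjusted p = 0.918). With the 10x pools alone 5 members were called: Dcn, Lum, Bgn, Ogn and Aspn, the ones tested in all 15 alternatives. Fmod, Kera, Prelp and Podn had too few counts to be tested in at least 1 alternative, so they need not have failed a test here.

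Between E12.5 and E14.5 most members rose in MP-like cells. With the platform as a term, 8 of the 10 passed the test upward, where 6.11% of 14064 genes did, and the median log2 fold change was 3.76 over the members and 0.11 over all genes. Dcn went from 54.2 to 564 CPM in 10x and from 56.1 to 1125 CPM in Smart-seq2 (log2 fold change 4.17, SE 0.50, adjusted p = 2.32e-14). Aspn started from 0 UMIs among 497779 in 10x (at most 7.41 CPM) and 0.44 CPM in Smart-seq2 and reached 278.3 and 246.8 CPM, the largest log2 fold change of the family at 10.11 (SE 0.78, adjusted p = 4.34e-34). Ogn went from 36.2 to 345.97 CPM in 10x and from 57.2 to 752.7 CPM in Smart-seq2 (3.85, SE 0.51, adjusted p = 6.25e-12).

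Lum rose from 76.3 to 413.7 CPM in 10x and from 185.6 to 695 CPM in Smart-seq2 (2.51, SE 0.47, adjusted p = 6.96e-06), and Bgn from 56.25 to 220.8 CPM and from 110.6 to 500.98 CPM (2.38, SE 0.48, adjusted p = 3.15e-05). Dcn, Aspn, Ogn, Lum and Bgn were each higher at E14.5 on both platforms. For Prelp the 10x sums went from 0 to 17.3 CPM and the Smart-seq2 sums from 5.45 to 118.4 CPM (4.57, SE 0.63, adjusted p = 5.68e-11). Kera rose by 4.94 (SE 0.89, adjusted p = 1.86e-06), mostly in Smart-seq2, from 1.36 to 37.96 CPM. Fmod was called with 3.67 (SE 0.68, adjusted p = 4.93e-06), but its 10x level was 10.0 CPM at E12.5 and 6.07 CPM at E14.5, while Smart-seq2 went from 3.52 to 97.9 CPM. With the Smart-seq2 sums of E14.5 left out Fmod was at 0.33 and not called. Omd and Podn were not called, with 0.16 (SE 1.93) and 1.81 (SE 0.98).

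These calls rest on few pools: without the Smart-seq2 pool of E12.5 only Aspn was called, and the share of all genes that were called went from 7.22% to 0.0756%. The MP-like cells of the 2 days are different clusters, the E12.5 ones nearly all in the weakly named cluster and those of E14.5 in 2 others, so a change of level and a change in which cells carry the name cannot be told apart.

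**Figure D3:**
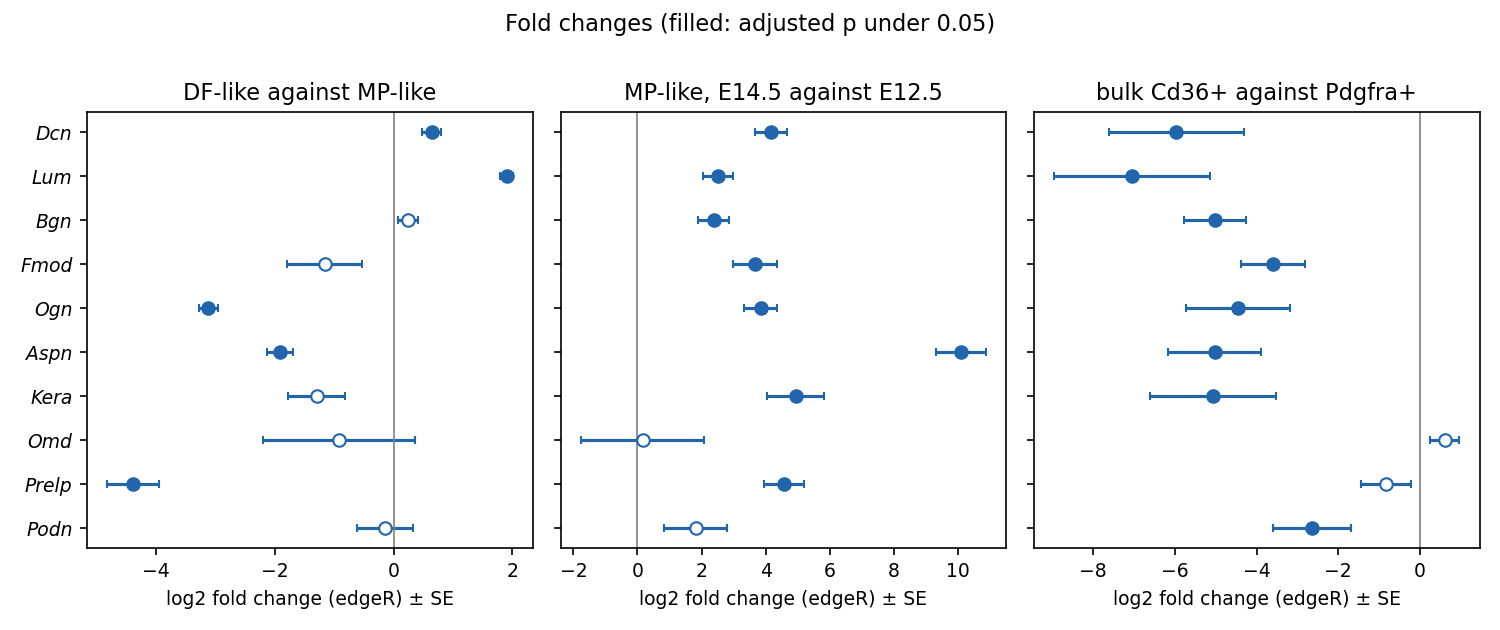
Fitted log2 fold changes (horizontal axes, points, with SE as bars) of the 10 genes in 3 comparisons: DF-like against MP-like over 4 pools, MP-like E14.5 against E12.5, and bulk Cd36+ against Pdgfra+ libraries. Filled points have an adjusted p under 0.05; 2 genes are higher and 3 lower in DF-like cells, 8 rose by day and 8 were lower in Cd36+ libraries.

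From E14.5 to E16.5 no member passed the edgeR test in MP-like cells and 0 did with DESeq2, while 4 had an unadjusted p under 0.05 (2.01% of 14064 genes were called in either direction). These 4 were Dcn (log2 fold change 1.31, SE 0.44, adjusted p = 0.0974), Aspn (1.39, SE 0.49, adjusted p = 0.143), Ogn (1.13, SE 0.45, adjusted p = 0.238) and Bgn (0.89, SE 0.45, adjusted p = 0.463). Without the 10x pool of E16.5, Dcn (1.79), Ogn (1.81) and Aspn (2.65) were called, and without the 10x pool of E14.5 Aspn (2.69) was. In DF-like cells Fmod was the only member called, in a fit where 0.415% of 13014 genes were called higher. It went from 2.04 to 13.1 CPM in 10x, on 2 and 6 UMIs, and from 12.8 to 61.4 CPM in Smart-seq2 (2.67, SE 0.70, adjusted p = 0.0256). The Fmod call was lost with DESeq2 and at a clustering resolution of 0.4, and its adjusted p ranged from 0.0207 to 0.416 over 8 alternatives. The classes of these days were also made of different clusters. DF-like cells of E14.5 were nearly all in 1 cluster, which held 17 cells of E16.5, and those of E16.5 nearly all in another, which held 5 of E14.5. MP-like cells of E14.5 were in 2 clusters with 49 and 27 cells of E16.5, and most of E16.5 were in another cluster with 3 of E14.5. A change of level and a change in which cells carry the name cannot be told apart in any comparison of these days.

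The contrast of the 2 classes also differed by day for 3 of 10 members (3.92% of 14199 genes in either direction), between classes made of the different clusters just described. From E14.5 to E16.5 the log2 difference of DF-like against MP-like cells changed by -0.78 for Dcn (SE 0.19, adjusted p = 0.00256), by -0.80 for Bgn (SE 0.23, adjusted p = 0.0195) and by 3.09 for Fmod (SE 0.57, adjusted p = 9.23e-06). For Dcn the DF-like and MP-like 10x levels, 1371 and 564 CPM at E14.5, became 1029 and 996 CPM by E16.5. For Fmod the platforms differed: MP-like levels went from 6.07 to 36.9 CPM in 10x and from 97.9 to 34.02 CPM in Smart-seq2. Without the Smart-seq2 pool of E16.5 none of the 3 was called, and without the 10x pool of that day only Fmod was. Fmod itself was lost with DESeq2 (2.61) and in the fit that left out the Smart-seq2 sums of E14.5 (1.97).

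Brown adipocyte-like cells, which could be compared in the 10x library of E16.5, held little of the abundant members except for Prelp. Dcn stood at 17.9 CPM in BA-like cells, on 9 UMIs, and at 996 CPM in MP-like cells, a level ratio of 0.0179 (conditional exact 95% interval 0.008135 to 0.0344). The ratios of Ogn, 0.0142, Aspn, 0.0215, Bgn, 0.0605, and Lum, 0.0957, were also far under 1. Prelp had 23 and 15 UMIs, which are 45.6 and 39.5 CPM, and a ratio of 1.15 (0.577 to 2.38). Smart-seq2 did not give equal levels: with the mitochondrial limit lifted, which left 61 BA-like cells, Prelp was at 50.9 CPM against 126.7 CPM in MP-like cells, a ratio of 0.402. This ratio has no interval, because Smart-seq2 expected counts are not UMIs. Against DF-like cells, with 1 Prelp UMI, or 2.18 CPM, the ratio was 20.97 (3.41 to 864). Prelp was in 12.0% of BA-like cells (exact binomial interval 7.40 to 18.1%, median total 3031) and in none of the EM-like cells of the same library (up to 2.40%, median total 1719), and thinned to 1000 counts in 3.82% and 0%. With 1 pool these ratios have no test. The 14 BA-like Smart-seq2 cells, too few for a sum, held Prelp in 12 cells at 53.03 CPM, where MP-like cells had 125.99 CPM, and Dcn was at 24.4 CPM. Prelp was also found in the 29 NP-like 10x cells of E14.5, with 5 UMIs or 55.3 CPM (17.97 to 129.15).

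**Figure D4:**
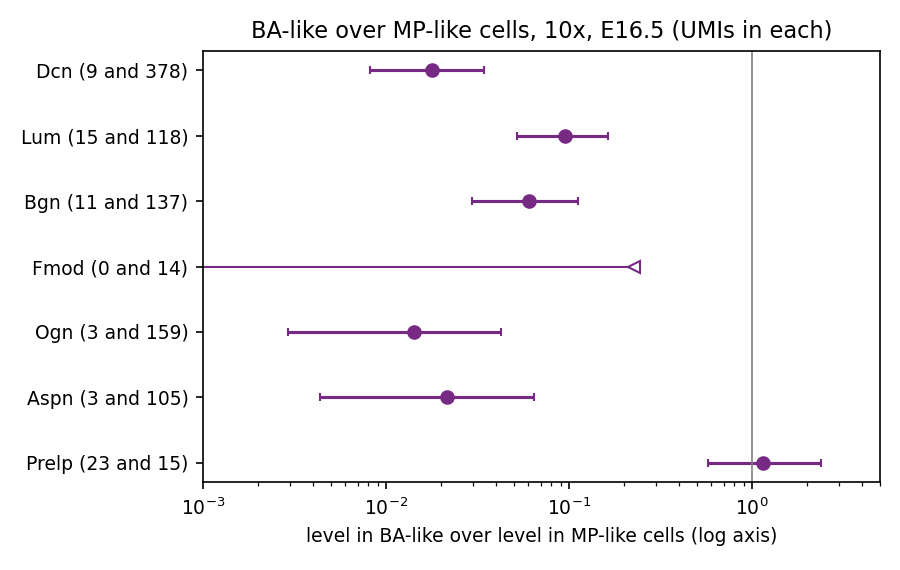
Level in BA-like cells divided by the level in MP-like cells of the 10x library of E16.5 (horizontal log axis), with conditional exact 95% intervals of the counts. Genes are rows with their UMIs in BA-like and MP-like cells, and the arrow for Fmod is the upper limit with 0 UMIs in BA-like cells. Dcn, Lum, Bgn, Ogn and Aspn lie at 0.0957 or lower and Prelp at 1.15, with an interval that holds the line of equal levels, while the Smart-seq2 ratio of Prelp, not plotted, was 0.402.

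The bulk libraries, with 3390851 to 35332908 counts each, let levels be compared roughly between genes, since their reads cover whole transcripts. The length used was the union of all annotated exons of a gene: 5838 bases for Dcn, 6099 for Bgn and 2448 for Lum. Transcripts can be shorter than this union, so the order of genes depends on it. By CPM alone the Pdgfra+ sorted libraries held 2535.5 to 4844.5 of Dcn and 1027.1 to 4070.7 of Lum. Per kilobase of exon, the Pdgfra+ sorted libraries held Lum at 419.6 to 1663 CPM, Dcn at 434.3 to 829.8, Aspn at 141.2 to 604, Ogn at 105.04 to 536.3, Bgn at 99.32 to 131.4, Prelp at 18.65 to 44.86, Fmod at 16.955 to 29.99, Kera at 1.59 to 7.89, Omd at 2.43 to 7.19 and Podn at 1.97 to 2.75. The ranges of the first 4 overlapped, that of Bgn overlapped the low end of Ogn, as did those of Prelp and Fmod and those of the last 3. In bulk, fewer cells of a type and less RNA per cell cannot be told apart.

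Cd36+ libraries held far less of 8 of the 10 members than sorted Pdgfra+ libraries (18% of 17586 genes were called lower). The labels give both sets the same day, but the study's text puts its sorted Pdgfra+/Thy1- cells at E14.5. A difference in day can thus be part of this contrast. Dcn was at 4758, 3195, 4845 and 2535 CPM in the Pdgfra+ libraries and at 68.4 and 31.02 CPM in the Cd36+ libraries, without overlap. Its log2 fold change was -5.96 (SE 1.65, adjusted p = 0.0118). Lum had 3892, 1183, 4071 and 1027 CPM against 19.99 and 11.5 CPM, with the library order of Dcn (-7.04, SE 1.91, adjusted p = 0.0106). Ogn had 269.5, 1288, 343.98 and 1376 CPM against 35.03 and 26.3 CPM, so the Pdgfra+ libraries high in Lum were the ones low in Ogn (-4.45, SE 1.28, adjusted p = 0.0144).

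Bgn varied less between libraries, at 615.7, 801.5, 605.75 and 663.1 CPM against 19.6 and 14.48 CPM (-5.01, SE 0.76, adjusted p = 2.19e-04). Aspn (-5.02), Kera (-5.06), Fmod (-3.59) and Podn (-2.65) were called too. Prelp had 78.9, 133.6, 67.4 and 162.2 CPM against 47.5 and 54.8 CPM, lower in both Cd36+ libraries but not called (-0.83, SE 0.61, adjusted p = 0.316), and Omd had 5.47 to 16.2 CPM against 14.1 and 11.0 CPM (0.61, SE 0.36, adjusted p = 0.217). Sorted libraries were technical duplicates, and the fit took its spread from all 18 libraries, cultured ones included, so the p-values depend on those too. For Dcn the adjusted p ranged from 8.95e-07 to 0.119 over 12 alternatives. Without the first Cd36+ library 3 members were called and without the second 2, Bgn and Fmod in both cases, in fits where the lone Cd36+ library was assumed to vary like the other groups, and Podn was lost in 8 of 12 alternatives. Adipocyte markers summed to 27885 and 30220 CPM in Cd36+ and to between 126.4 and 926.6 CPM in Pdgfra+ libraries, and endothelial markers to 93.1 to 117.1 and 42 to 51.3 CPM; their part in the result was not tested.

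**Figure D5:**
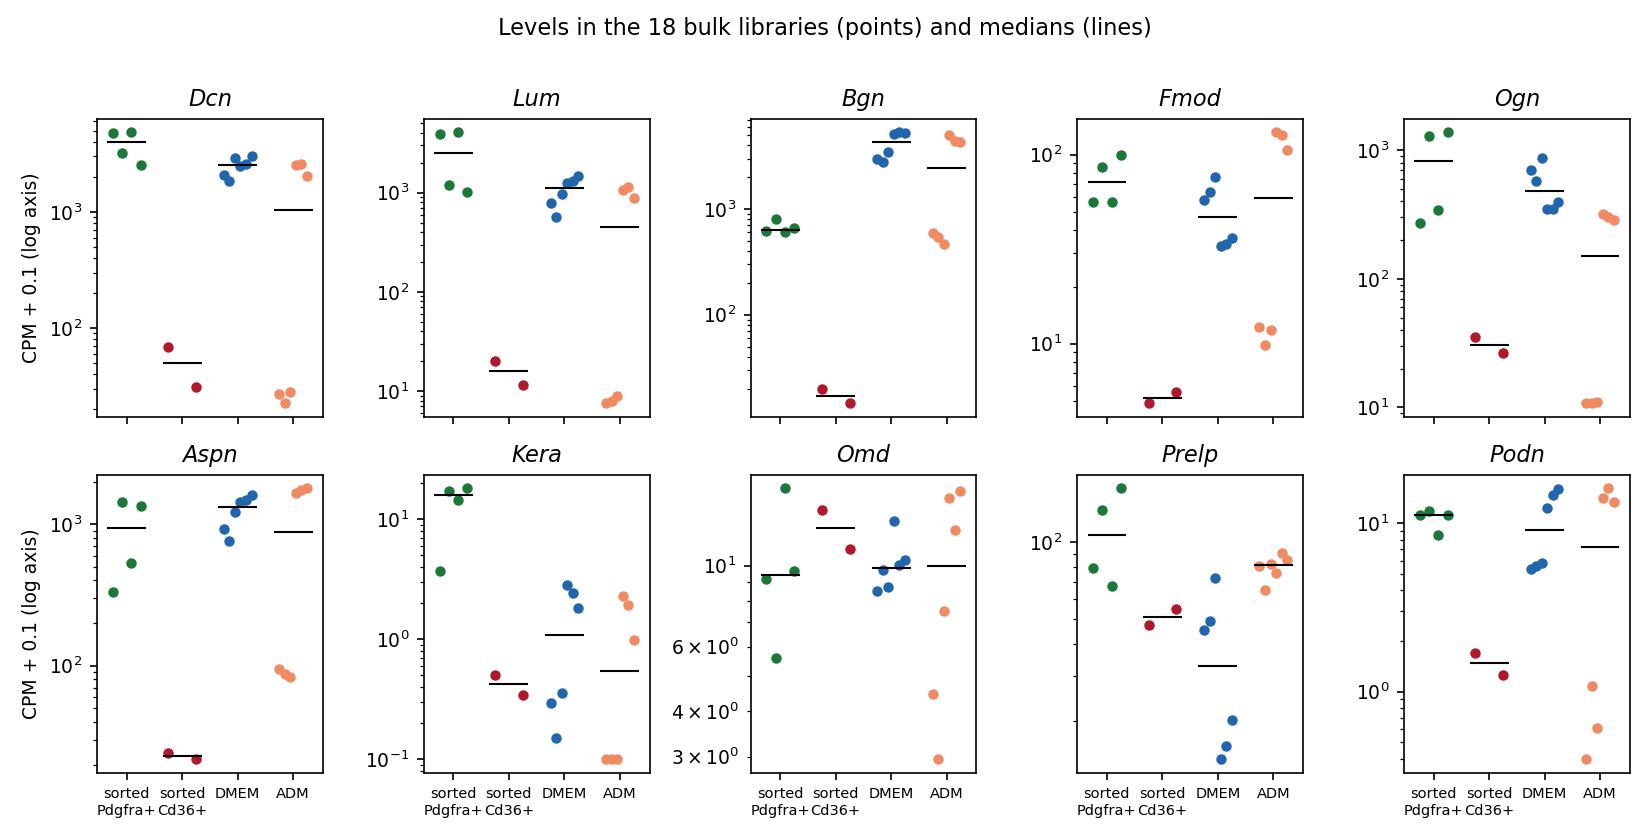
Levels of the 10 genes in the 18 bulk libraries (vertical log axes, CPM plus 0.1), grouped as sorted Pdgfra+ (4), sorted Cd36+ (2), cultured in DMEM (6) and in ADM (6). Points are libraries and lines are medians; 3 ADM libraries lie far under the other 3 for Dcn, Lum, Bgn, Fmod, Ogn and Aspn, and Prelp lies between 65 and 90.8 CPM in all 6.

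Adipogenic medium gave libraries that differed strongly among themselves, and 1 of 10 members was called against growth medium (5.21% of 17586 genes were called higher). Dcn ranged in ADM from 22.5 over a median of 1042 to 2587 CPM, with 3 libraries at 28.2 CPM or less and 3 at 2056 CPM or more, while the 6 DMEM libraries ranged from 1825 over 2526 to 3030 CPM. Dcn was not called (-1.11, SE 0.80, adjusted p = 0.399). By the labels 3 ADM libraries are Thy1+ and 3 Thy1-, fitted here as 1 group. The SE and p thus include any difference between the gates, and the fold change averages over both. The same 3 ADM libraries were the low ones for Lum, at 7.44 to 8.84 against 883 to 1133 CPM, and for Ogn, at 10.7 to 10.9 against 286.95 to 320.9 CPM. Ogn was called with DESeq2 and not with edgeR (-1.82, SE 0.69, adjusted p = 0.0987).

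Prelp ranged in ADM from 65 over 81.1 to 90.8 CPM and in DMEM from 14.1 over 32.7 to 72.2 CPM, and the sets overlapped by 1 DMEM library. It rose by 1.68 on the log2 scale (SE 0.40, adjusted p = 0.0203). The Prelp call was lost in 3 of 18 alternatives, among them library totals in place of TMM factors (1.14) and the fit without the first ADM library (1.55), and its adjusted p ranged from 4.05e-04 to 0.0760 over 18 alternatives. With library totals 21.1% of the called genes were higher in ADM, against 57% with TMM factors and 70.3% with RLE factors. Adipocyte markers summed to 1916 to 61501 CPM over the ADM libraries and to 1.44 to 27344 CPM over the DMEM libraries, and their part in these values was not tested.

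Cultured DMEM cells held more Bgn than sorted Pdgfra+ cells, in sets that by their labels also differ in day (E14.5 against E16.5), so culture and day cannot be told apart. Sorted libraries are technical duplicates and cultures triplicate wells. Bgn ranged from 2761 over 4321 to 5315 CPM in DMEM and from 605.75 over 639.4 to 801.5 CPM in sorted libraries, without overlap. It rose by 3.96 (SE 0.52, adjusted p = 9.00e-06), and by 2.63 or more in each of 16 alternatives. In all, 3 members were called higher, where 20.2% of genes were, and 1 lower, where 33.6% were. Aspn was called at 1.79 (SE 0.69, adjusted p = 0.0362), though the sets overlapped at 757.6 to 1601 CPM in DMEM and 332.4 to 1422 CPM in sorted libraries. Its call was kept in 9 of 16 alternatives, with an adjusted p of up to 0.619. Kera was called at -2.14 (SE 0.85, adjusted p = 0.0425) and kept in 8 of 16 alternatives, with an adjusted p of up to 0.39, from 3.61 to 18 CPM in sorted to 0.0513 to 2.74 CPM in DMEM libraries. Omd was called at 1.32 (SE 0.29, adjusted p = 0.0011) with TMM factors but was at -0.011 with library totals, and its sorted and DMEM libraries overlapped at 5.47 to 16.2 and 8.42 to 13.1 CPM. With the replicate number as a block 2 of the 4 members were called, Bgn and Omd. Library totals moved the median over all genes from -0.31 to -1.64, so relative to that median Bgn and Aspn were higher with both scalings, Aspn at 0.45 and not called with library totals. The share of called genes that were higher was 37.5% with TMM factors and 5.75% with library totals.

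The partners of these proteins moved in part with them. The list of collagens whose fibrils carry the proteoglycans had 11 genes, of which 10 rose in MP-like cells from E12.5 to E14.5, led by Col14a1 (log2 fold change 9.30), Col6a1 (3.67) and Col12a1 (3.55), and all 11 fell in EM-like cells and in Cd36+ libraries. In DF-like against MP-like cells 4 of the 11 fell, among them Col11a1 (-4.48), Col14a1 (-2.36) and Col12a1 (-1.00) and the other 7 were not called. Of all genes tested, 6.11% were called higher by day, and 14.1%, 18% and 6.2% were called lower in EM-like cells, Cd36+ libraries and DF-like cells. The list medians were 2.83, -3.46, -3.98 and 0.15 in these comparisons, beside 0.11, -0.15, -0.05 and -0.04 over all genes.

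Of 19 enzymes that build chondroitin, dermatan and keratan sulfate chains, 3 rose by day in MP-like cells, where 6.11% of all genes did: Chst5 (10.84), Chsy3 (4.40) and Chpf (3.00). Chst5, a sulfotransferase of the keratan sulfate path, also fell in DF-like cells (-8.58) and in DMEM against sorted libraries (-6.16), and Chpf, a chondroitin polymerizing factor, fell in DF-like cells (-1.67) and in ADM (-2.03). For the lists that follow, the shares of all genes called were 5.04% upward and 6.2% downward for DF-like against MP-like cells, 6.11% upward from E12.5 to E14.5, 2.01% in either direction from E14.5 to E16.5 and 9.16% in either direction in ADM. Of 6 ligands and receptors of the transforming growth factor beta group, Tgfb2 (-2.18) and Tgfb3 (-1.75) fell and Tgfbr3 (1.03) rose in DF-like cells. Egfr, reported as a receptor for decorin, was the 1 of 6 tested receptors that fell in DF-like cells (-3.01) and the 1 that rose by day (2.47).

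Among 6 proteases and propeptide enzymes, Adamts5, an aggrecanase, rose at both day steps in MP-like cells (4.98 and 2.13), and Bmp1, the procollagen C-proteinase, fell in DF-like cells (-0.72) and in ADM (-2.10). Of the 7 other genes of the family, all tested in bulk, 3 were called between sorted sets, where 31.8% of all genes were called in either direction: in Cd36+ libraries Epyc (-3.20) and Tsku (-3.17) fell and Optc (2.05) rose. In DMEM against sorted libraries 5 of the 7 fell, where 33.6% of all genes did.

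Over the 18 bulk libraries, the genes whose log2(CPM + 1) followed that of Dcn most closely among 12269 were Lum (Pearson r 0.994), Il11ra1 (0.993) and Mfap2 (0.988), and those closest to Lum were Dcn, Tns3 (0.992) and Mfap2 (0.986). Bgn was closest to Serpinf1 (0.996), Tuba1a (0.994) and S100a6 (0.991), and its r with Dcn was 0.667. Ogn was closest to Dlk1 (0.979), Plxdc2 (0.976) and C1ra (0.973), with 0.938 for Dcn. Prelp had r of -0.09 with Dcn and 0.01 with Ogn. The libraries share sort gates, media and technical duplicates, so these values describe the 18 libraries.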

How the data were processed

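Single-cell counts of YFP+ cells (10x, and Smart-seq2 on plates) and bulk counts of 18 libraries were analysed. The deposited 10x values are raw UMI counts per gene, which the authors made with Cell Ranger. The deposited Smart-seq2 values are expected counts that the authors made with kallisto 0.44.0, and they were rounded after summing. The deposited bulk values are raw counts per gene. The submitters' processing notes name mm10, STAR, bcl2fastq and Seurat too.

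Cells followed the study's limits: at most 8% mitochondrial counts, at least 4000 genes in Smart-seq2 and at most 15000 counts in 10x. Cells were clustered with Seurat 5.3.0 at a resolution of 0.8 without the members and their lists, and clusters were named from markers with a score of at least 0.25 and at least 3 markers found. These naming limits were set after the clusters were seen. Doublets called by Scrublet were kept and removed in an alternative. Counts were summed per pool and class of at least 20 cells and tested with edgeR 4.0.16 in R 4.3.3 (quasi-likelihood test, TMM factors, Benjamini-Hochberg over all genes tested, threshold 0.05), with the pool as a block between classes and the platform as a term between days. Bulk libraries shared 1 fit without a block. Every bulk set except Cd36+ mixes both Thy1 gates, so the spread behind the bulk p-values includes any difference between gates. SE is the log2 fold change divided by the square root of F. DESeq2 1.42.0 was an alternative, and the steps were tested on simulated data. There, of genes set to a log2 fold change of 1 and of 2, DF-like against MP-like recovered 21% and 89%. EM-like against MP-like recovered 30.5% and 95.9%. The shares were 0% and 39% for MP-like E14.5 against E12.5, and 5% and 49.5% for MP-like E16.5 against E14.5. For the DF-like days they were 2.06% and 35.1%, and for the interaction of class and day 0% and 2.02%. The simulated counts had the same mean profile in all sums and a fixed spread, without pool or platform differences other than depth. These shares thus need not hold for the real fits. In the day and interaction fits a member that was not called can still differ. CPM is a count scaled to 1000000 counts per sum or library, and shares were also computed on cells thinned to 1000 (10x) or 100000 (Smart-seq2) counts. Poisson, binomial and conditional intervals are exact and at 95%.

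The members and lists were chosen with earlier results of these data known. Every member is named. From each other list the 3 genes with the largest called change per comparison could be named, and for Dcn, Lum, Bgn and Ogn the 3 most alike genes. The Thy1 contrasts that had been planned were not run, because the column names do not hold the sign of the gate, and they were replaced by contrasts of whole sets. The study's text and the labels differ on the day of the sorted Pdgfra+/Thy1- libraries (E14.5 against E16.5), and the labels were followed. Same-numbered libraries did not deviate together, so numbers were not used to pair them. No pair of libraries was alike within sampling noise (chi-square per gene at least 4.08).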

Additional observations from a re-analysis of the deposited data

Results flagged for a closer look

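The difference between DF-like and MP-like cells changed from E14.5 to E16.5 by -0.78 for Dcn, -0.80 for Bgn and 3.09 for Fmod on the log2 scale, each past the test of the interaction itself (edgeR, adjusted p = 0.00256, 0.0195 and 9.23e-06). These calls rest on 8 class sums, and none remained without the Smart-seq2 pool of E16.5.

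Cells of 1 cluster with cartilage genes, 17 in 10x, entered no comparison and held members above the level of 3 counts, which is 35.3 CPM for their sum: Lum at 564 CPM, Bgn at 399.6 CPM, Ogn at 246.8 CPM, Aspn at 223.3 CPM, Fmod at 94.03 CPM and Prelp at 82.3 CPM. Dcn was at 23.5 CPM, on 2 UMIs. The 9 Smart-seq2 cells of that cluster held Bgn at 1215 CPM and Lum at 192.6 CPM. In 30 groups of libraries, each a gene in 1 set, 0 libraries were found far from the others. Each of these sets mixes both Thy1 gates. Where its libraries split into clusters, 1 far library could hardly stand out, so this test cannot decide whether there is one. The 2 Cd36+ libraries were too few for it.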

How the results depend on the processing

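Of 39 calls among 90 tests of members, 16 kept their direction and their side of the threshold in every alternative that tested the gene. A member with too few counts was not tested in some alternatives. For EM-like against MP-like cells, Podn was tested in 12 alternatives and Dcn in 15. With DESeq2 in place of edgeR, the share of all genes called went from 7.22% to 4.63% (MP-like E14.5 against E12.5), from 2.01% to 0.69% (MP-like E16.5 against E14.5), from 0.753% to 0.392% with 0 members (DF-like days), from 3.92% to 0.901% (interaction) and from 9.16% to 18.5% with 2 members (ADM against DMEM). RLE factors gave 1.09% and resolution 1.2 gave 0.729% for MP-like E16.5 against E14.5. With 10x pools alone 8.33% of genes were called for DF-like against MP-like cells, and 32.9% with 5 members for EM-like against MP-like cells, from 11.2% and 24%. Those 5 were the members tested in all 15 alternatives of that comparison. Library totals left 0 members and 4.94% of genes in ADM against DMEM, and with only the compared libraries 5.69% of genes were called there and 7 members in DMEM against sorted libraries. The cause was not tested.

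Same-numbered libraries had correlations of deviations of -0.054, -0.083 and -0.004 between media and -0.013 and -0.013 between sorted sets, so the numbers do not pair them. With a replicate block 0 members and 2.51% of genes were called in ADM against DMEM (Prelp 1.71), 2 members and 28.9% in DMEM against sorted, and 7 members and 24.3% in Cd36+ against Pdgfra+.

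Leaving out 1 pool or library gave 4 to 6 members and 6.04% to 17.7% of genes for DF-like against MP-like, 8 to 9 and 12.9% to 39.2% for EM-like against MP-like, 1 to 8 and 0.0756% to 11.3% for MP-like E14.5 against E12.5, 0 to 3 and 0.108% to 4.76% for MP-like E16.5 against E14.5, 0 to 4 and 0.026% to 8.63% for the interaction, 2 to 8 and 11.2% to 27.9% for Cd36+ against Pdgfra+, 0 to 1 and 3.08% to 15.9% for ADM against DMEM, and 2 to 3 and 47.3% to 51.6% for DMEM against sorted.

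Signs turned mostly for values near 0. Library totals turned Dcn (-0.63), Lum (-1.26), Fmod (-0.58), Ogn (-0.61), Omd (-0.011) and Podn (-0.10) in DMEM against sorted and Omd (-0.062) in ADM against DMEM; the block turned Lum (-0.079), as did leaving out sorted Pdgfra+ libraries 2 (-0.17) and 4 (-0.19) or DMEM libraries 5 (-0.0083) and 6 (-0.033), with Lum at up to 0.40 without other libraries. In DF-like against MP-like, Podn turned at resolution 0.4 (0.0053) and without the 10x E14.5 pool (0.024, lowest -0.35 without another pool), and Fmod without the Smart-seq2 E14.5 pool (0.10, lowest -2.54). In EM-like against MP-like, Omd was -0.039 at resolution 0.4 and -0.12 with members kept in the clustering. In MP-like E14.5 against E12.5, Omd was -0.13 and -0.25 without the 10x pools of E12.5 and E14.5, and at most 0.015 over the pools left out. In MP-like E16.5 against E14.5, Omd was -0.21 at resolution 0.4 and -0.34 with members kept, and Fmod -0.065 with members kept. There, leaving out pools moved Fmod from -1.31 to 3.05 (-0.71 without the 10x E16.5 pool), Kera from -11.83 to 0.13, Lum from -0.23 to 0.94 (-0.16 without the Smart-seq2 E14.5 pool) and Podn from -0.56 to 2.00. In the interaction, Podn was 0.018 with DESeq2, and Lum 0.17 and Aspn 5.55 at resolution 0.4. Leaving out pools moved Podn there from -0.53 to 0.97 (0.54 without the Smart-seq2 E14.5 pool), Aspn from -1.54 to 0.23 and Prelp from -1.91 to 1.42.

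Not run, because no fit or too few sums remained, were the 10x pools alone for both MP-like day steps, the DF-like days and the interaction, resolution 1.2 for MP-like E14.5 against E12.5, and leaving out a pool for the DF-like days; the planned Thy1 contrasts were not run either.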

Other observations

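Within the sets whose Thy1 gate was not told apart, libraries fell into clusters by several members. Of the 4 sorted Pdgfra+ libraries, 1 pair had 3892 and 4071 CPM of Lum, 269.5 and 343.98 CPM of Ogn, 109.3 and 86.2 CPM of Thy1 and 154.2 and 104.3 CPM of Twist2, and the other pair had 1183 and 1027 CPM of Lum, 1288 and 1376 CPM of Ogn, 5.87 and 4.77 CPM of Thy1 and 17.5 and 8.08 CPM of Twist2. Of the 6 ADM libraries, 3 had 3171 to 3406 CPM of Adipoq with 463.4 to 598.3 CPM of Bgn, and 3 had 29.9 to 35.4 CPM of Adipoq with 4256 to 5024 CPM of Bgn. Prelp was at 65 to 81.8 CPM in the former and at 76 to 90.8 CPM in the latter. The 6 DMEM libraries had 880 to 1535 CPM of Adipoq with 45.2 to 72.2 CPM of Prelp in 3 libraries, and at most 0.177 CPM of Adipoq with 14.1 to 20.2 CPM of Prelp in the other 3. These are values of single libraries, with no test.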
